A study of Mus musculus with 12 samples.

Results

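The 8 genes described here, *Mrc1*, *Cd163*, *Lyve1*, *Siglec1*, *Stab1*, *Cbr2*, *Ms4a7* and *Folr2*, are a named set of border-associated macrophage genes, chosen by name as known markers, with earlier results of these data known. They are 8 of the 49315 genes in the table, and all 8 were among the 20290 genes that passed the filter on low counts and were tested. The data are bulk RNA-sequencing counts from the brains of 12 male mice at 14 d post-stroke, with 6 mice in each of the groups. All 12 recipients were CD45.1 Pep Boy mice (C57Bl6 congenic, *Tet2*-sufficient) aged 8 to 12 weeks when they were irradiated with the head shielded, and 90% of the bone marrow (BM) cells they then received were CD45.1 *Tet2*+/+. The remaining 10% were CD45.2 *Tet2*-/- in the mice called *Tet2*-KO and CD45.2 *Tet2*+/+ in the mice called WT, so *Tet2* was intact in most transplanted cells and in all host cells of both groups. Between 8 and 10 weeks after transplantation, the middle cerebral artery was occluded for 30 min in every mouse. There was no sham or naive brain among the libraries, so each value below compares stroke brains with stroke brains. The question asked of the data was whether the level of these genes differed with the *Tet2* genotype of the minority donor marrow.

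Border-associated macrophages live in the meninges, the perivascular spaces and the choroid plexus, outside the brain tissue that microglia occupy. They take up proteins, lipids, hemoglobin and cell debris through scavenger receptors, and several of their defining genes encode such receptors. After stroke, macrophages derived from blood monocytes enter the lesion and can express some of the same genes, and *Lyve1* is also a gene of lymphatic vessels, so none of the 8 genes marks a single cell type in a whole-brain library. In bulk tissue, fewer cells of a type and less RNA per cell cannot be told apart. The head shield leaves the host's own brain macrophages in place, and the libraries do not separate host from donor transcripts.

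Promoter windows of 300 bases, from 250 before to 50 after the transcript start, were available from RefSeq (GRCm38.p6) for 6 of the 8 genes. The windows of *Mrc1* and *Cbr2* are printed because they hold the PU.1 motif, a short form of the site of the macrophage lineage factor encoded by *Spi1*. Those of *Ms4a7*, the gene with the largest fold change, and *Cd163*, a gene whose groups had almost the same level, are printed beside them. Sequences read 5′ to 3′ along the gene, and capitals mark a motif found on either strand.
Mrc1, chr2:14229164-14229463, plus strand: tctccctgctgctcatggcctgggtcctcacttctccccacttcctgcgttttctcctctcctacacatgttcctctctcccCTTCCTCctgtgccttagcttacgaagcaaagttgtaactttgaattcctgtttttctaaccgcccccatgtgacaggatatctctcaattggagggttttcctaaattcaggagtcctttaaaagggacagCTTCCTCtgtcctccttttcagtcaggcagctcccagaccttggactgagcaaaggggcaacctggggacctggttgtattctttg
Cbr2, chr11:120731972-120732271, minus strand: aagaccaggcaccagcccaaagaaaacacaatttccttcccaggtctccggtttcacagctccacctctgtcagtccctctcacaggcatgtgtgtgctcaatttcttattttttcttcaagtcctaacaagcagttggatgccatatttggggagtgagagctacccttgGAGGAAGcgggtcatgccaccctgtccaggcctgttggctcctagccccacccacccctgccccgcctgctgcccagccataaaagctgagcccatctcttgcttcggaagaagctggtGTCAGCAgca
Ms4a7, chr19:11336097-11336396, minus strand: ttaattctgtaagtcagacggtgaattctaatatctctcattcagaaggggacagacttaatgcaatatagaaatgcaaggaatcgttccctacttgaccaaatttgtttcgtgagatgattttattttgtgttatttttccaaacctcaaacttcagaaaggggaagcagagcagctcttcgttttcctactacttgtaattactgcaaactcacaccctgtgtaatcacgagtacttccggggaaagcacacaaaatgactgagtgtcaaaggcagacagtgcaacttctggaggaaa
Cd163, chr6:124304401-124304700, plus strand: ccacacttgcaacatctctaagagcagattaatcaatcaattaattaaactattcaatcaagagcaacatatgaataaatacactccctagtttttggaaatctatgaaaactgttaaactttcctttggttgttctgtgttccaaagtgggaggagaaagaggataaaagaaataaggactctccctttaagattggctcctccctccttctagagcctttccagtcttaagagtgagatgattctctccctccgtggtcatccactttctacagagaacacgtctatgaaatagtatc
Both *Mrc1* motifs are GAGGAAG on the opposite strand, at -168 to -162 and -36 to -30 from the start. In *Cbr2*, GAGGAAG lies at -79 to -73 on the strand of the gene, and TGCTGAC, a short form of the site of MAF factors, lies on the opposite strand at 40 to 46. Across the 8 windows of the 6 genes, PU.1 was found in 2, the MAF motif in 1, the AP-1 motif TGACTCA in 1 (a second start of *Folr2*) and the interferon response motif in 0. Among all 32851 RefSeq promoter windows, the shares holding these motifs were 13.6%, 4.67%, 5.2% and 3.44%, in the same order. A match is a run of letters and not a measured binding site.

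Libraries held between 12000261 and 15340787 counts in WT mice and between 12625047 and 21049763 in *Tet2*-KO mice. No pair of libraries of 1 group agreed within counting noise (chi-square per degree of freedom of 1.99 to 27.4 over 30 pairs), so each was kept as 1 mouse. *Tet2* itself ranged from 126 to 147 counts per 1000000 counts of the TMM-scaled library (CPM) in WT brains and from 117 to 137 CPM in *Tet2*-KO brains, and its log2 fold change was -0.0097 (adjusted p = 0.934, edgeR). Since the knockout was carried by a minority of transplanted blood cells, this level does not check the labels. In the 8 genes, *Tet2*-KO replicate 5 had the highest values of its group, and it is named beside the results that change without it. Over all genes it was closest to *Tet2*-KO replicate 4 (chi-square per degree of freedom of 6.62) and farthest from *Tet2*-KO replicate 1 (27.4). The treatment label of the *Tet2*-KO mice reads like that of the WT mice, so the groups rest on the titles and genotype labels.

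Of the 8 genes, 6 were lower in *Tet2*-KO than in WT brains on average and 2, *Cd163* and *Lyve1*, were not. The median log2 fold change over the 8 genes was -0.97, beside 0.010 over all tested genes, of which 47.7% were below 0. In 4 genes, *Folr2*, *Mrc1*, *Ms4a7* and *Stab1*, the difference had an unadjusted p below 0.05 and was lower in *Tet2*-KO, where 12.2% of all tested genes met the same rule (10.8% were higher by it). With upper quartile scaling the same 4 genes met it, and the background moved to 10.5% lower and 14.8% higher. None of the 8 genes passed the adjusted threshold of 0.05 in edgeR, which 0.0246% of all tested genes (5 genes, all lower) passed. In none did every *Tet2*-KO mouse lie below every WT mouse, which held for 0.641% of tested genes, or above every WT mouse, which held for 0.453%. In 5 genes, 5 of the 6 *Tet2*-KO mice lay below all 6 WT mice, and 5.64% of tested genes had at least 5 such mice. In *Stab1* and *Mrc1* the highest of these mice, *Tet2*-KO replicate 4, was only just below the lowest WT mouse.

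**Figure D1:**
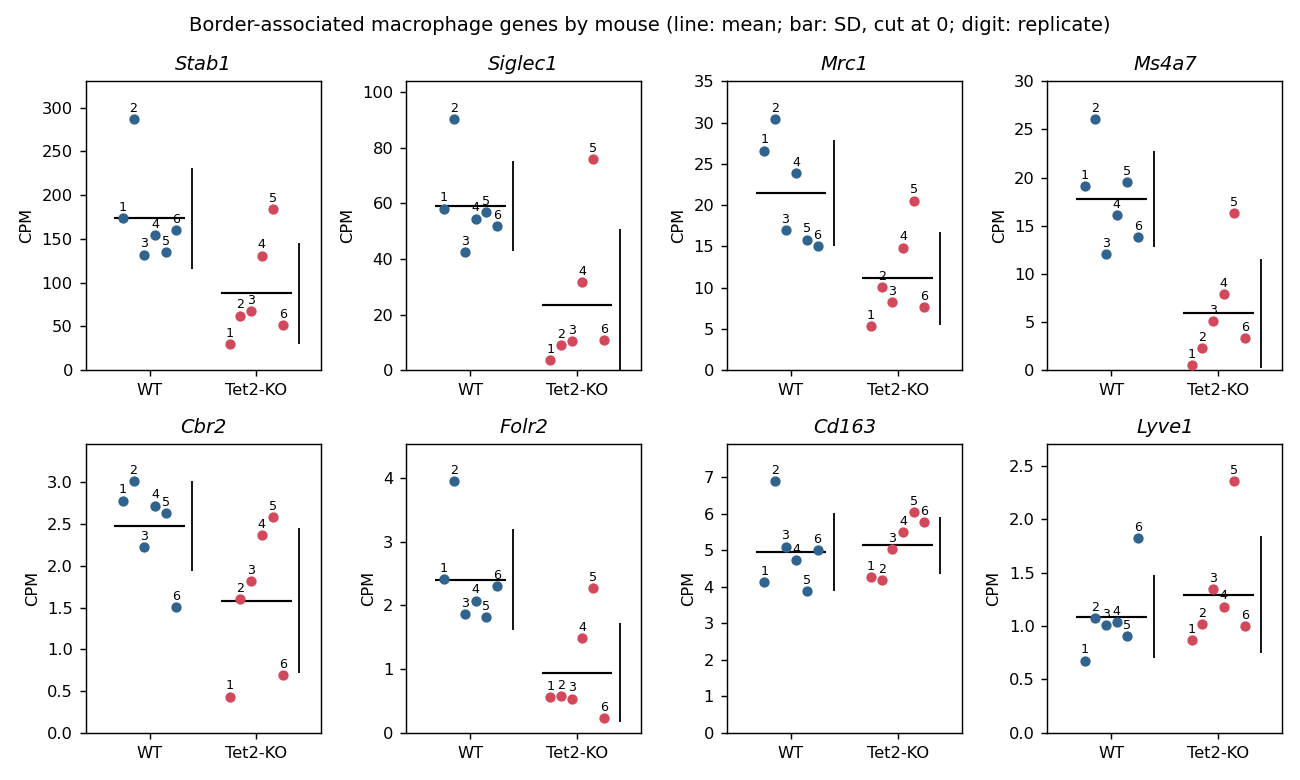
Scaled counts (CPM, linear axis from 0) of the 8 genes in each brain, with 1 point per mouse, the replicate number above it, the group mean as a horizontal line and the SD as a vertical bar. *Tet2*-KO replicate 5 is the highest *Tet2*-KO point in all 8 panels, and in *Stab1*, *Siglec1*, *Mrc1*, *Ms4a7* and *Folr2* the other 5 *Tet2*-KO points lie below every WT point.

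Among the scavenger and uptake receptors, *Stab1* was the most abundant of the set. *Stab1* (ENSMUSG00000042286, chr14:31139013-31168641, minus strand, GRCm38) encodes stabilin-1, a receptor for modified lipoproteins and other spent ligands. Its WT values ran from 132 to 287 CPM with a median of 157, and its *Tet2*-KO values from 29.5 to 184 CPM with a median of 65.1. The mean was 174 ± 57.7 CPM (SD, n = 6) in WT and 87.8 ± 58.1 CPM (SD, n = 6) in *Tet2*-KO. All *Tet2*-KO mice but replicate 5 were below the lowest WT mouse, though replicate 4, at 131 CPM, was only just below it. The log2 fold change was -0.99 (SE 0.41, 95% interval -1.90 to -0.078, edgeR unadjusted p = 0.0361, adjusted p = 0.189). Without the WT mouse with the highest value, replicate 2, it was -0.79 (edgeR unadjusted p = 0.0929), and leaving out each mouse in turn kept the unadjusted p below 0.05 in 6 of 12 cases. Exons of *Stab1* share 112 bases, 1.09% of their length, with *Nt5dc2* on the opposite strand.

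*Mrc1* (ENSMUSG00000026712, chr2:14229392-14332057, plus strand), which encodes the mannose receptor CD206, ranged from 15.0 to 30.5 CPM in WT brains with a median of 20.4. In *Tet2*-KO brains it ranged from 5.39 to 20.6 CPM with a median of 9.17, and again only replicate 5 reached the WT range. Replicate 4, at 14.9 CPM, was only just below the lowest WT mouse. Group means were 21.5 ± 6.45 CPM in WT and 11.1 ± 5.60 CPM in *Tet2*-KO (SD, n = 6 each). The log2 fold change of -0.95 (SE 0.32, 95% interval -1.65 to -0.25) had an unadjusted p of 0.0120 and an adjusted p of 0.137 in edgeR. This gene kept an unadjusted p below 0.05 in each of the 12 fits that left out 1 mouse.

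*Folr2* (ENSMUSG00000032725, chr7:101839988-101857194, minus strand) encodes folate receptor beta, a folate uptake receptor of tissue macrophages. It was scarce, with 22 to 55 reads per WT library and 3 to 29 per *Tet2*-KO library. WT values ran from 1.81 to 3.94 CPM with a median of 2.19, and *Tet2*-KO values from 0.231 to 2.28 CPM with a median of 0.570. The log2 fold change of -1.36 (SE 0.39, 95% interval -2.20 to -0.52) had the smallest p among the 8 genes (unadjusted p = 0.00387, adjusted p = 0.121, edgeR). The DESeq2 Wald test gave an adjusted p of 0.0277 for *Folr2* and passed no other of the 8 genes, where 3.71% of genes passed and were lower. Of the 1546 exonic bases of *Folr2*, 975 (63.1%) overlap exons of *Gm10602* on the opposite strand. The strand setting of the counting is not given in the sources used here, so reads of these genes cannot be told apart. *Gm10602* itself was at -0.22 on the log2 scale (edgeR adjusted p = 0.687).

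*Cd163* (ENSMUSG00000008845, chr6:124304656-124330527, plus strand), the receptor for hemoglobin bound to haptoglobin, had nearly equal levels in the groups. Values ran from 3.87 to 6.89 CPM with a median of 4.87 in WT and from 4.18 to 6.04 CPM with a median of 5.27 in *Tet2*-KO. The *Tet2*-KO mice all lay inside the WT range. The means of 4.95 ± 1.06 CPM and 5.14 ± 0.777 CPM (SD, n = 6 each) differed by 0.041 on the log2 scale (SE 0.14, edgeR adjusted p = 0.896). The 95% interval of -0.27 to 0.35 does not reach the fold change of any of the 6 lower genes, though the difference between genes was not tested. With 47 to 107 reads per library, *Cd163* was counted more deeply than *Folr2*.

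*Lyve1* (ENSMUSG00000030787, chr7:110850607-110863239, minus strand), a hyaluronan receptor of perivascular macrophages and lymphatic endothelium, was the scarcest gene in WT brains, with 9 to 23 reads per library. It had 13 to 30 reads in *Tet2*-KO libraries, where *Folr2* had the lower median CPM. WT values ran from 0.677 to 1.82 CPM with a median of 1.02, and *Tet2*-KO values from 0.867 to 2.35 CPM with a median of 1.10. The groups overlapped almost fully. The log2 fold change was 0.22 (SE 0.28, 95% interval -0.36 to 0.81, edgeR adjusted p = 0.668), and at this depth a difference inside that interval was not detectable. Of the 4 tested genes on a list of lymphatic endothelium, which also uses *Lyve1*, *Pdpn* was lower and *Reln* higher by unadjusted p. *Prox1*, the lineage factor of that endothelium, had a log2 fold change of 0.0053. *Mmrn1* of the same list had 0 to 2 reads per library and was too scarce to test. Whether these genes track that endothelium in whole-brain libraries was not tested.

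The sialic acid receptor gene *Siglec1* (ENSMUSG00000027322, chr2:131069220-131086765, minus strand), also called sialoadhesin or CD169 and known to be induced by interferon, spread widely in *Tet2*-KO brains. WT values ran from 42.6 to 90.4 CPM with a median of 55.7. *Tet2*-KO values ran from 3.72 to 75.9 CPM with a median of 10.6, a 20.4-fold range within the group against 2.12-fold in WT. Replicate 5, at 75.9 CPM, was the only *Tet2*-KO mouse inside the WT range. The log2 fold change was -1.34 (SE 0.62, 95% interval -2.71 to 0.034, edgeR unadjusted p = 0.0550, adjusted p = 0.227). Without replicate 5 it was -2.15, with an edgeR adjusted p of 0.0211, where 7.3% of genes passed the adjusted threshold and were lower.

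*Ms4a7* (ENSMUSG00000024672, chr19:11321039-11336146, minus strand) encodes a membrane protein that spans the bilayer several times and separates border-associated macrophages from microglia. It had the largest fold change of the set, -1.62 on the log2 scale (SE 0.55, 95% interval -2.83 to -0.40, edgeR unadjusted p = 0.0137, adjusted p = 0.142), or 67.4% lower. WT values ran from 12.1 to 26.1 CPM with a median of 17.6, and *Tet2*-KO values from 0.558 to 16.3 CPM with a median of 4.21. The 29.3-fold range among *Tet2*-KO mice was the widest of the 8 genes, and again all but replicate 5 lay under the WT range.

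*Cbr2* (ENSMUSG00000025150, chr11:120729489-120732114, minus strand), a carbonyl reductase and the only enzyme of the set, was the weakest of the 6 lower genes. Values ran from 1.51 to 3.01 CPM with a median of 2.68 in WT and from 0.434 to 2.59 CPM with a median of 1.71 in *Tet2*-KO. Only 2 of the 6 *Tet2*-KO brains were under the lowest WT brain. The log2 fold change of -0.64 (SE 0.32, 95% interval -1.33 to 0.047) did not pass either threshold (edgeR unadjusted p = 0.0656, adjusted p = 0.246).

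**Figure D2:**
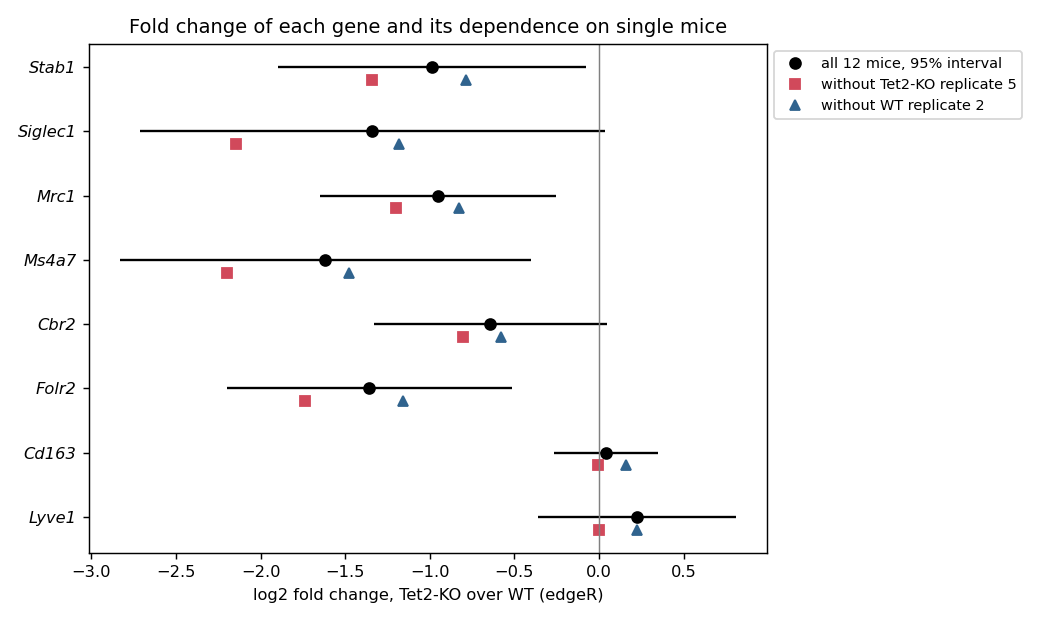
Log2 fold change of each gene, *Tet2*-KO over WT, with its 95% interval from edgeR over all 12 mice (circles), beside the value without *Tet2*-KO replicate 5 (squares) and without WT replicate 2 (triangles). Leaving out *Tet2*-KO replicate 5 moves *Siglec1* from -1.34 to -2.15, while *Cd163* and *Lyve1* lie near 0 in each setting.

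Single mice carried much of the spread. *Tet2*-KO replicate 5 had the highest *Tet2*-KO value of all 8 genes and *Tet2*-KO replicate 1 the lowest of 6, while WT replicate 2 had the highest WT value of 7. In the 6 lower genes, *Tet2*-KO replicate 4 was the next highest of its group after replicate 5. It stood at 131 CPM in *Stab1*, 31.7 CPM in *Siglec1* and 1.49 CPM in *Folr2*, apart from the remaining *Tet2*-KO mice. Without *Tet2*-KO replicate 5, *Mrc1*, *Siglec1*, *Stab1*, *Ms4a7* and *Folr2* passed the adjusted threshold in edgeR, where 7.3% of genes passed and were lower. In the same 5 genes the groups then did not overlap, with every *Tet2*-KO mouse the lower, which held for 4.76% of genes. That outcome was fixed in advance, since replicate 5 was their only *Tet2*-KO mouse inside the WT range. Replicate 5 was also singled out for its values in these genes, so leaving it out gives no added support. The log2 fold changes of the 5 genes were then -1.20, -2.15, -1.34, -2.20 and -1.74, with edgeR adjusted p of 0.0243, 0.0211, 0.0432, 0.0198 and 0.0120. *Cbr2* reached -0.80, and *Cd163* and *Lyve1* were at -0.0081 and -0.00052. The limma-voom fit with sample quality weights, which gives less weight to libraries that stand apart, kept all 12 mice and passed the same 5 genes. There 7.01% of genes passed and were lower. Its log2 fold changes of the 5 genes, in the same order, were -1.01, -2.10, -1.14, -2.22 and -1.62. The weights were estimated from these same libraries, so this fit gives no independent support either.

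Within each mouse, *Cd163* offers a level that did not pass any test, and the other genes were divided by it as a description chosen after its values were seen. The median ratio of *Stab1* to *Cd163* counts was 33.8 in WT (25.9 to 42.1) and 14.2 in *Tet2*-KO (6.90 to 30.5). For *Siglec1* it was 12.3 in WT and 2.13 in *Tet2*-KO, for *Ms4a7* 3.59 and 0.793, for *Mrc1* 4.26 and 2.02, and for *Folr2* 0.464 and 0.135. In each of these 5 genes the ratio, too, was lower than in any WT brain in 5 of 6 *Tet2*-KO brains, and 6.91% of tested genes had at least 5 such brains on the ratio. For *Cbr2* the median ratio was 0.506 in WT and 0.372 in *Tet2*-KO, with 2 of 6 *Tet2*-KO brains under the WT range. The ratio of *Lyve1* to *Cd163* had medians of 0.208 and 0.230, and 0 of 6 *Tet2*-KO brains were under the lowest WT brain.

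Per kilobase of exon, which allows levels to be compared between genes, the WT order was *Stab1* (16.9 ± 5.61 CPM per kb, SD, n = 6), *Siglec1* (8.27 ± 2.29), *Ms4a7* (3.99 ± 1.13), *Mrc1* (3.37 ± 1.01), *Cbr2* (1.87 ± 0.408), *Folr2* (1.55 ± 0.512), *Cd163* (0.907 ± 0.194) and *Lyve1* (0.373 ± 0.133). The neighbours *Ms4a7* and *Mrc1*, and *Cbr2* and *Folr2*, differed by less than their SD. In *Tet2*-KO brains *Stab1* (8.53 ± 5.65) and *Siglec1* (3.31 ± 3.83) were still the highest, and the SD of *Siglec1* was above its mean. *Cd163* (0.940 ± 0.142) there stood above *Folr2* (0.612 ± 0.503), within the SD of the latter.

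The 6 lower genes varied together from mouse to mouse. After each group's mean was removed, their 15 pairs had Pearson's r of 0.66 to 0.96 (median 0.84) over 12 mice. *Siglec1* with *Stab1* was the closest pair at 0.96. *Cd163* correlated less with these 6 genes (0.25 to 0.63, median 0.52), as did *Lyve1* (0.32 to 0.62, median 0.55), and *Cd163* with *Lyve1* had r of 0.50. The mice share tissue, dissection and library preparation, and *Tet2*-KO replicate 5 and WT replicate 2 are among the 12 points of every pair, so these values describe the libraries.

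**Figure D3:**
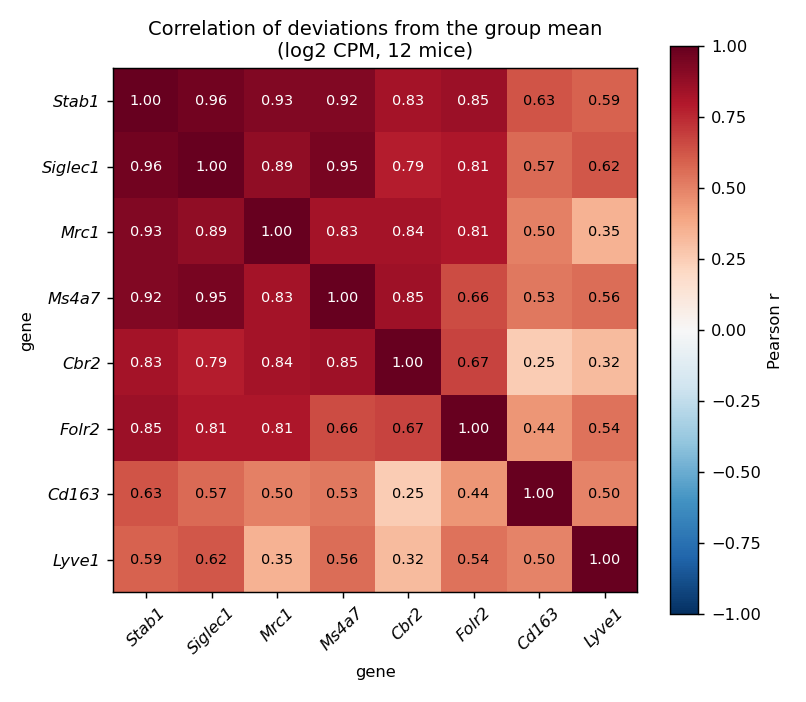
Pearson's r between log2 CPM deviations from the group mean for each pair of the 8 genes over 12 mice, from -1 (blue) to 1 (red). The 6 lower genes form a block at 0.66 and above, and the rows of *Cd163* and *Lyve1* stay at or below 0.63.

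The genes whose levels were most like the set over the 12 mice differed by gene. *Siglec1* was closest to *Rnf213* (r = 0.997), *Themis2* and *Samd9l*, of which *Rnf213* and *Samd9l* are known interferon-induced genes. *Stab1* was closest to *Wdfy4* (r = 0.996), *Pear1* and *Grn*, the progranulin gene. *Ms4a7* was closest to *A130071D04Rik* (r = 0.994), *Cybb*, the phagocyte NADPH oxidase subunit, and *Lum*, a fibroblast proteoglycan gene. *Mrc1* was closest to *Steap3* (r = 0.992), *Nrros* and *Rcn3*, *Folr2* to *Itgb7* (r = 0.988), *Dse* and *Angptl4*, and *Cbr2* to *Gm38346* (r = 0.968), *S100a4* and *Ccl3*. The nearest genes to *Cd163* were *Rfx5* (r = 0.927), *Marveld2* and *Gm4673*, and to *Lyve1* *Ccdc141* (r = 0.944), *Gm32983* and *Stx17*. These are the highest correlations among all tested genes and carry no test.

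Other genes of the same cells were mostly lower as well. Of 22 further border-associated macrophage genes, 16 could be tested, 16 were lower in *Tet2*-KO and 14 had an unadjusted p below 0.05. Their median log2 fold change was -1.02, and none passed the adjusted threshold in edgeR, while 6 did in DESeq2 and 11 in edgeR without *Tet2*-KO replicate 5. Of all genes, 3.71% passed and were lower in DESeq2, and 7.3% in edgeR without that mouse. The smallest p-values belonged to *Cd36*, a fatty acid and lipoprotein receptor (-1.73, edgeR adjusted p = 0.0752), *Pla2g2d*, a secreted phospholipase (-1.58, adjusted p = 0.104), and *Wfdc17* (-2.13, adjusted p = 0.110). The chemokine gene *Pf4*, in common use as a marker of these cells, was at -0.81 (edgeR adjusted p = 0.139). *Mgl2*, *Cd209f*, *Vsig4*, *Timd4*, *Ccl24* and *Fcna* were too scarce to test.

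All 17 tested paralogues of the set were lower, 12 of them with an unadjusted p below 0.05, at a median log2 fold change of -1.01. None passed the adjusted threshold in edgeR with all mice, and 11 did without *Tet2*-KO replicate 5, where 7.3% of all genes passed and were lower. All 6 listed *Ms4a* relatives of *Ms4a7* had an unadjusted p below 0.05, with log2 fold changes from -1.77 to -1.26, among them *Ms4a6d* (-1.42, edgeR adjusted p = 0.128) and *Ms4a6c* (-1.48, adjusted p = 0.128). The sialic acid receptor *Siglece*, a relative of *Siglec1*, had the smallest p of the list (-1.09, edgeR adjusted p = 0.110). *Stab2*, *Folr1* and *Dcxr*, the listed relatives of *Stab1*, *Folr2* and *Cbr2*, had log2 fold changes of -0.28, -0.27 and -0.24 and unadjusted p above the threshold.

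Ligands and handling partners of the receptors were mixed. Of 9 tested, 7 were lower and 5 had an unadjusted p below 0.05, at a median of -0.45. *Hp*, which encodes the haptoglobin that CD163 takes up with hemoglobin, was at -1.80 (edgeR adjusted p = 0.112), and *Hmox1*, the heme oxygenase that breaks down the heme, at -1.32 (adjusted p = 0.125), whereas *Cd163* was at 0.041. *Spn*, which encodes CD43, a ligand of sialoadhesin, was at -1.48 (edgeR adjusted p = 0.104). Among the hyaluronan synthases that make the ligand of LYVE1, *Has2* was at -1.08 (edgeR adjusted p = 0.124), *Has1* at 0.0037 and *Has3* at 0.097. The folate carriers *Slc46a1* and *Slc19a1* were at -0.10 and -0.086.

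Of 9 factors that sustain or specify macrophages, 8 were lower and 6 had an unadjusted p below 0.05, at a median of -0.63. *Cebpb* was at -0.89 (edgeR adjusted p = 0.121), *Runx1* at -1.04 (adjusted p = 0.152) and *Maf* at -0.39 (adjusted p = 0.138). *Spi1*, which encodes PU.1, was at -0.89 (edgeR adjusted p = 0.158), and *Csf1r*, the receptor on which these cells depend, at -0.53 (adjusted p = 0.259). Its ligand *Csf1* was at -0.63 and its other ligand *Il34*, made by neurons, at 0.071. All 8 interferon-stimulated genes were lower, 7 with an unadjusted p below 0.05 (median -0.94, with the smallest p in *Usp18*, *Rsad2* and *Mx1*), and all 5 MHC class II genes were lower with an unadjusted p below 0.05 (median -1.67), with the smallest p in *Ciita*, *H2-Eb1* and *H2-Ab1*. Without *Tet2*-KO replicate 5, 6 of the interferon-stimulated genes, 5 of the MHC class II genes and 4 of the macrophage factors passed the adjusted threshold. In that fit 7.3% of all tested genes passed and were lower.

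Markers of other cell types moved beside these genes. The summed level of 8 lesion phagocyte genes ran from 1214 to 3029 CPM in WT and from 101 to 1754 CPM in *Tet2*-KO, with 8 of 8 lower and 6 at an unadjusted p below 0.05, with the smallest p in *Lgals3*, *Lyz2* and *Lpl*. Of 7 tested monocyte genes, 7 were lower and 6 had an unadjusted p below 0.05 (sums of 428 to 873 CPM in WT and 155 to 524 CPM in *Tet2*-KO), among them *Plac8* and *Fn1*. All 9 genes of leptomeningeal and perivascular fibroblasts, which share the borders with these macrophages, were lower with an unadjusted p below 0.05 (949 to 1916 CPM in WT, 269 to 1184 CPM in *Tet2*-KO), with the smallest p in *Dcn*, *Slc6a13* and *Col1a1*. Of 3 tested neutrophil genes, all were lower and 2, *S100a8* and *S100a9*, passed the adjusted threshold (log2 fold changes of -2.16 and -2.84, edgeR adjusted p = 0.0364 for both). *Cxcr2* was the third. *Ly6g*, *Retnlg*, *Mpo*, *Camp* and *Ngp* of the same list were too scarce to test. Mean CPM in WT and *Tet2*-KO was 0.023 and 0 for *Ly6g*, 0.576 and 0.509 for *Retnlg*, and 0.302 and 0.304 for *Mpo*. For *Camp* it was 0.208 and 0.158, and for *Ngp* 0.741 and 0.579. In 8 of the 12 fits without 1 mouse, no gene of the table passed the adjusted threshold. Without *Tet2*-KO replicate 5, 6 of the lesion phagocyte, 7 of the monocyte, 7 of the fibroblast and 3 of the neutrophil genes passed it. In that fit 7.3% of all tested genes passed and were lower. Replicate 5 had the highest *Tet2*-KO sum on each of these lists, so these counts give no added support.

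Of 6 dendritic cell genes, 6 were lower and 4 had an unadjusted p below 0.05 (43.6 to 47.5 CPM in WT, 34.1 to 45.2 CPM in *Tet2*-KO), with the smallest p in *Ccr7*, *Xcr1* and *Cd209a*. Homeostatic microglia genes had a median of -0.15, with 7 of 8 lower and 1, *Olfml3*, at an unadjusted p below 0.05 (515 to 901 CPM in WT, 260 to 665 CPM in *Tet2*-KO). All 6 neuronal genes were higher with an unadjusted p below 0.05 (median 0.26, 2605 to 3850 CPM in WT, 3427 to 4696 CPM in *Tet2*-KO). Medians of choroid plexus epithelium, blood endothelium, astrocyte and oligodendrocyte genes were -0.22, -0.091, -0.12 and 0.013. Lymphatic endothelium genes had a median of 0.10. No gene on any of these lists was at 0 in every library. The part of these cell types in the results for the 8 genes was not tested.

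**Figure D4:**
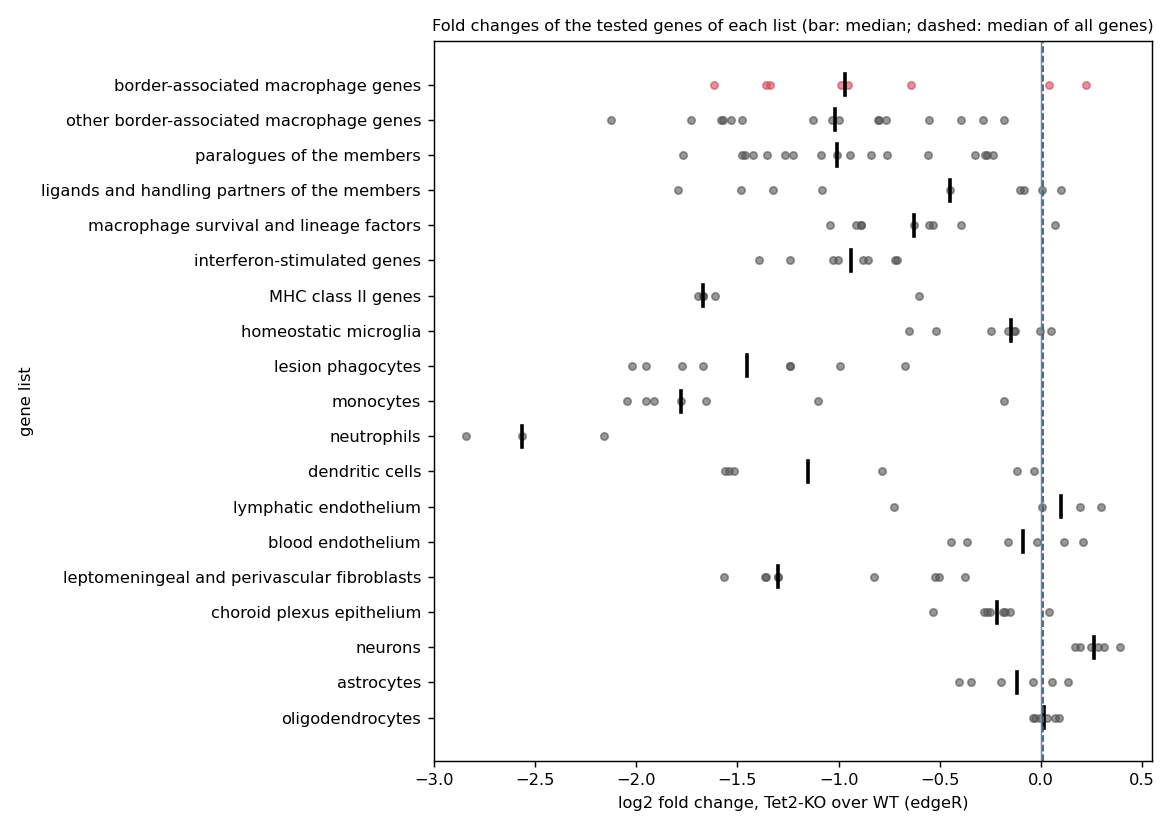
Log2 fold changes, *Tet2*-KO over WT, of the tested genes of each list, with 1 point per gene, the list's median as a vertical bar, 0 as a solid line and the median of all tested genes (0.010) as a dashed line. *Cd163* and *Lyve1* are the points of the border-associated macrophage set on the right of 0, and all 16 tested further genes of these cells are on the left.

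The same mice stood out on these lists. WT replicate 2 had the highest WT sum on 16 of 18 lists, *Tet2*-KO replicate 5 the highest *Tet2*-KO sum on 11 and *Tet2*-KO replicate 1 the lowest on 14. *Tet2*-KO replicate 4 had the highest *Tet2*-KO sum of microglia genes (665 CPM) and the lowest of neuronal genes (3427 CPM). Deviations of *Stab1* from its group mean followed those of the summed fibroblast genes (r = 0.98), MHC class II genes (0.98), lesion phagocyte genes (0.97) and microglia genes (0.94), and ran against the neuronal genes (-0.84). *Siglec1* and *Ms4a7* followed the interferon-stimulated genes at 0.97, but not these alone. *Siglec1* followed the lesion phagocyte genes at 0.98 and the fibroblast genes at 0.96, and *Ms4a7* the MHC class II genes at 0.95. *Cd163* followed the blood endothelium genes most closely of the lists named here (0.79), and *Lyve1* the interferon-stimulated genes (0.63). These are descriptions over 12 mice that share tissue and preparation.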

How the data were processed

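RNA from 12 mouse brains was measured by bulk RNA-sequencing, and groups came from the titles and genotype labels. The deposited values are raw counts per gene, which the authors made by trimming (Trimmomatic 0.36), alignment to mm10 (STAR 2.5.2b) and featureCounts (Subread 1.5.2), per the labels. Whether counting used strand is not given in the sources used here. A low count carries a wide sampling error, which the negative binomial model includes. Every row named a gene, and no column was left out.

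From the counts, groups were compared in R 4.3.3 by edgeR 4.0.16 (quasi-likelihood F test, filterByExpr, TMM, robust fit, no covariates), with Benjamini-Hochberg adjustment over all 20290 tested genes and a threshold of 0.05. CPM was the count divided by the TMM-scaled library total, times 1000000, and log2 CPM for correlations used a prior count of 2. Scripts were tested on simulated data. DESeq2 1.42.0, limma 3.58.1 (voom with quality weights), other scalings and filters, a replicate block and fits without each mouse were alternatives. Symbols and positions came from a GRCm38 annotation, promoters from RefSeq.

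The members and lists were chosen with earlier results of these data known. Named were all 8 members and, from each other list, genes past the adjusted threshold, the 3 smallest p-values and genes behind counts of 5 or fewer. For each member, the 3 most correlated genes were named. Other genes of the lists were named for their known link to a member after their values were seen. *Ms4a6c*, *Maf* and *Folr1* are among the genes on more than 1 list. Some genes that the rule would name are not reported here.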

Additional observations from a re-analysis of the deposited data

Results flagged for a closer look

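Within each group of 6 mice, the highest and the lowest CPM of each of the 8 genes were compared with the other mice, and 5 of 16 gene and group combinations held a mouse whose gap to its nearest neighbour exceeded Dixon's 95% critical value for its share of the group's range. Chance marks about 1 in 20 such groups, and the 16 are not independent because the genes vary together. WT replicate 2 stood above the other WT mice in *Stab1* (287 CPM, the next being 174), *Siglec1* (90.4 CPM, the next being 58.1) and *Folr2* (3.94 CPM, the next being 2.41). *Lyve1* was set apart in WT replicate 6 (1.82 CPM, the next being 1.08) and in *Tet2*-KO replicate 5 (2.35 CPM, the next being 1.34), both on few reads.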

How the results depend on the processing

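Under all 7 alternatives that keep all 12 mice, those of the 8 genes that could be tested kept their direction, with *Cd163* above 0 in all 7 and *Lyve1* in the 6 that tested it. The number of the 8 genes past the adjusted threshold was 0 in edgeR, 1 in DESeq2 (*Folr2*) and 5 in limma-voom, where 5, 917 and 2013 of all genes passed. With no filter on low counts 44 of all genes passed, and 0 of the 8. Requiring at least 10 counts in every library left 4 of the 8 genes, of which 3 were lower, and 0 of all genes passed. An unadjusted p below 0.05 was found in 2 of the 4 (*Mrc1*, *Stab1*) and in 4241 of all 18181 tested genes, in either direction. Fits without 1 mouse gave 6 to 8 lower genes, 0 to 5 past the adjusted threshold, 3 to 6 with an unadjusted p below 0.05, 0 to 5 without overlap between the groups, and a median of -1.27 to -0.81. Of all genes, 3130 to 5744 had an unadjusted p below 0.05 in these fits, in either direction. The upper ends of these counts, and the median of -1.27, came without *Tet2*-KO replicate 5, when 2257 of all genes passed. Without single mice, *Cd163* ranged from -0.017 to 0.16 and *Lyve1* from -0.00052 to 0.42, turning below 0 without WT replicate 1 (*Cd163* -0.0046), WT replicate 5 (*Cd163* -0.017) or *Tet2*-KO replicate 5 (*Cd163* -0.0081, *Lyve1* -0.00052). The cause was not tested. Same-numbered mice did not deviate together (r of -0.17 to 0.23), and only 1 of 6 WT mice correlated best with its own number. These values cannot show whether same-numbered mice shared a cage, surgery or preparation. With the replicate block, 0 of the 8 genes passed the adjusted threshold, the median was -1.10, and 0 of all genes passed. In that fit 6 of the 8 genes had an unadjusted p below 0.05, as did 4329 of all 20290 tested genes, in either direction. Among all genes with an unadjusted p below 0.05, 52.9% were lower, and 41.4% with upper quartile scaling. Low counts of *Lyve1*, *Folr2* and *Cbr2* limit their precision.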
